A study of Homo sapiens with 4 samples.

Results

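WDR77, PRMT5 and the other protein arginine methyltransferase genes were examined in human multiple myeloma cells treated with OSSL_325096 at 1 µM, a compound whose code is its only name here, and in cells treated with the solvent DMSO. Both treatments were given to KMS12PE and to KMS11, established lines of a malignancy of antibody-secreting plasma cells, so that each treatment had 2 libraries, 1 from each line, and each line had 1 library per treatment. The labels do not give the length of exposure. The set held 10 genes, chosen by name from the 57773 genes of the authors' deposited table: the methyltransferase genes PRMT1, PRMT2, PRMT3, CARM1, PRMT5, PRMT6 and PRMT7, the PRMT5 partner genes WDR77 and CLNS1A, and MTAP. The set was put together because WDR77 was among the highest genes of the same comparison, so its fold change is a description and was not tested.

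Protein arginine methyltransferases move a methyl group from S-adenosylmethionine to arginine side chains of histones, splicing factors and other RNA-binding proteins. Type I enzymes (PRMT1, PRMT2, PRMT3, CARM1, PRMT6) place both methyl groups on the same nitrogen, PRMT5 is the main type II enzyme and places them symmetrically, and PRMT7 adds a single methyl group. PRMT5 works as a complex with the WD-repeat protein WDR77, also called MEP50, which binds substrates. CLNS1A, also called pICln, brings Sm proteins of the spliceosome to this complex, and the MTAP enzyme removes methylthioadenosine, a metabolite that inhibits PRMT5.

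The values were the authors' comparison of OSSL_325096 with DMSO over both lines. For each gene it gave a log2 fold change, positive where expression was higher with OSSL_325096 by the order of treatments in the table's title, a p-value, and 1 level, the mean RPKM of the treatment with the higher mean (RPKM scales reads by transcript length and library size). No level of a single library was analysed here, and sequencing depth is unknown. All 10 genes had a level of at least 1 RPKM and so belonged to the 11324 genes with which they are compared. An implied standard error (SE) was obtained for each gene from its fold change and p-value, and is right only for a two-sided normal test. The libraries of a treatment came from different lines, so the implied SE may also hold differences between the lines, which was not tested. FGFR3, MAF and CCND1, examined as markers of line identity, had implied SEs of at least 1.83. A further such marker, WHSC1, had 1.04, and the median over all genes kept was 1.10. The 9 plasma cell markers examined, among them SDC1, IRF4 and XBP1, had levels of 6.26 to 189 RPKM. Of 8 markers of other cells in the table, 7 were below 0.1 RPKM, and the epithelial marker EPCAM was at 15.8 RPKM per the authors' deposited table.

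WDR77 was the highest of the 10 genes by fold change, and its promoter is shown first because it lies between a pair of genes with different values. In RefSeq (GRCh38.p14), WDR77 and the ATP synthase subunit gene ATP5PB, listed as ATP5F1 per the authors' deposited table, point away from each other, with starts 208 bases apart. Their promoter windows, from 250 bases before to 50 after each start, share 293 of 300 bases. PRMT5 and CLNS1A, the other genes of the complex, are shown for comparison. Capitals mark matches, on either strand, to any of 4 sets of letters: TCTCGCGAGA, which is the longest run, of those that read the same on both strands, that the WDR77 window holds at more than 1 place, the E-box CACGTG, the CCAAT box (ATTGG on the other strand) and the heat shock element GAANNTTCNNGAA.
WDR77, chr1:111449207-111449506, reverse strand: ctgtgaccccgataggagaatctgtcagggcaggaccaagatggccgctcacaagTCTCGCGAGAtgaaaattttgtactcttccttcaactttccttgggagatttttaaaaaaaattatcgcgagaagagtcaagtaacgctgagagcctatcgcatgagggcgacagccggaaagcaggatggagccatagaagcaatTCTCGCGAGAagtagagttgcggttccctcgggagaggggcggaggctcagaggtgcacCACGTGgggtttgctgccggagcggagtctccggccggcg
PRMT5, chr14:22929327-22929626, reverse strand: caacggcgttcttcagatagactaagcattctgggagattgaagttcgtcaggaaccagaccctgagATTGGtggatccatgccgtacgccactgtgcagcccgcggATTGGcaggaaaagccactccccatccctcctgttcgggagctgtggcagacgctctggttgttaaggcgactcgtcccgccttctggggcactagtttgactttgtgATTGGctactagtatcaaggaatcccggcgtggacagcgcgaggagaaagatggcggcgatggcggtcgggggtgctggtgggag
CLNS1A, chr11:77637745-77638044, reverse strand: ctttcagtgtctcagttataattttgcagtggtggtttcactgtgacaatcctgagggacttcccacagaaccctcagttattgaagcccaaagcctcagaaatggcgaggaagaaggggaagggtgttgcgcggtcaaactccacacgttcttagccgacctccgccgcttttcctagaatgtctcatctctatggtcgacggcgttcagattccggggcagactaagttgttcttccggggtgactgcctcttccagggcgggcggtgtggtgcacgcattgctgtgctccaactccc
The WDR77 window held TCTCGCGAGA at both -195 and -49, counted from the start, and CACGTG at 11; the same runs lie at -22, -168 and -223 of the ATP5PB window. The PRMT5 window held 3 CCAAT boxes, at -183, -143 and -35, and the CLNS1A window held a match to 0 of the 4 sets. TCTCGCGAGA was found in 0.424% of all 35116 RefSeq windows of this length and at least 2 times in 8 windows. These 8 include the overlapping windows of WDR77 and ATP5PB, which hold the same sites. CACGTG was in 7.26% of them, the CCAAT box in 34.6% and the heat shock element in 0.490%. No window of the 10 genes matched the heat shock element as spelled, which says only that these letters are not in these windows.

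Genes with the WDR77 element gave a set of values beside which WDR77 can be read; this set was chosen after its values were seen. Of 99 genes of at least 1 RPKM with TCTCGCGAGA in a promoter window, 1, WDR77 itself, was at least 1.5-fold higher with OSSL_325096 and 4 were at least 1.5-fold lower. The median log2 fold change was -0.10. The element was taken from the WDR77 window, so WDR77 is in this set by construction and nothing is read from its own call. Of the 8696 genes of that level with any RefSeq window, 4.51% were at least 1.5-fold higher. Among all 11324 genes of that level, 4.95% were at least 1.5-fold lower. Besides WDR77, 5 genes had the element at least 2 times. Their log2 fold changes per the authors' deposited table were -0.26 for CDC5L, -0.22 for AKAP11, -0.10 for MAPK14, -0.04 for UBE2D3 and -0.02 for ATP5F1. The matches of ATP5F1 are the same sites as those of WDR77, because their windows overlap, so it is not a separate case. The 1147 genes with CACGTG had a median of 0.06, with 5.93% at least 1.5-fold higher.

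WDR77 (ENSG00000116455; hg19 chromosome 1, 111982512 to 111991998, reverse strand) was 2.47-fold higher with OSSL_325096 per the authors' deposited table. Its log2 fold change was 1.31 with an implied SE of 1.08 and an unadjusted p of 0.226 per the authors' deposited table, and the implied 95% interval of the fold ran from 0.571 to 10.7. These are bulk RNA values, so a shift in the share of cells with more WDR77 and more RNA per cell cannot be told apart. Of the 9 plasma cell markers, 3 were at least 1.5-fold lower with OSSL_325096 and 1 at least 1.5-fold higher. Among all genes, 4.95% were at least 1.5-fold lower and 4.95% higher. The log2 fold changes of these markers per the authors' deposited table were -0.73 for CD38, -0.67 for the transcription factor gene IRF4, -0.66 for TNFRSF17, which encodes the receptor BCMA, and 0.60 for SDC1. The other markers had -0.36 (PRDM1), -0.08 (SLAMF7), -0.02 (XBP1), -0.01 (POU2AF1) and 0.53 (MZB1) per the authors' deposited table. The implied SEs of the 9 genes were 0.91 to 1.80, each larger than the gene's difference, and the part of such shifts in the WDR77 value was not tested. By fold change WDR77 was 48th of 11324 genes, higher than 99.6% of them, and 15th of the 6711 genes of at least 5 RPKM. Its p-value was the 35th smallest of the 11324. The 10 genes held 1 gene at least 2-fold higher, WDR77, and 0.989% of all genes were so, while 0 of the 10 genes and 1.09% of all genes were at least 2-fold lower; since WDR77 was chosen from this contrast, nothing is read from that count. The genes next to it by fold change, among those of at least 5 RPKM, were SFN and DNAJB1 above and FKBP4 and the clone-named gene RP11-793H13.8 below, with log2 fold changes per the authors' deposited table that differed from that of WDR77 by 0.03, 0.01, 0.03 and 0.06. This likeness rests on 1 comparison only.

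The chromosomal neighbours of WDR77 had differences smaller than their implied SEs, and ATP5F1, the closest, was near 0. ATP5F1 (hg19 chromosome 1, 111991486 to 112005395, forward strand), with which WDR77 overlaps by 513 bases in the table's coordinates, had a log2 fold change of -0.02 with an implied SE of 0.90 at 33.6 RPKM per the authors' deposited table. The next genes of at least 1 RPKM were LRIF1, DRAM2 and CEPT1 on the WDR77 side and RAP1A and DDX20 on the ATP5F1 side. Their log2 fold changes per the authors' deposited table were 0.18, -0.27, -0.26, -0.36 and 0.27, each smaller than its implied SE, which ran from 1.01 to 1.21. A test of WDR77 against ATP5F1 needs values of single libraries and was not made. In GENCODE 44, exons of another gene on the same strand, listed as RP11-552M11.4, cover 21.9% of the exon bases of WDR77; that gene was at 0.142 RPKM per the authors' deposited table.

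**Figure D1:**
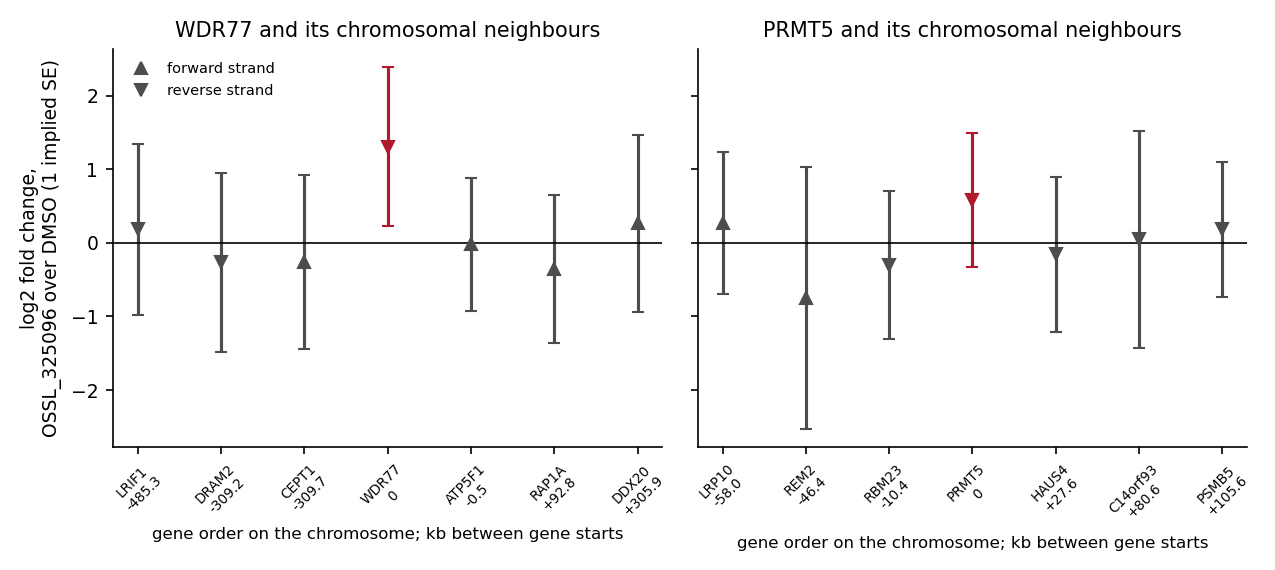
Log2 fold change of OSSL_325096 over DMSO (vertical axis, bars of 1 implied SE) for WDR77 (left) and PRMT5 (right), in red, with the 3 nearest genes of at least 1 RPKM on each side in chromosomal order; numbers under the names are kb between gene starts. WDR77 lies at 1.31 and ATP5F1, whose start is about 0.5 kb away, at -0.02.

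PRMT5 itself (ENSG00000100462; hg19 chromosome 14, 23389720 to 23398794, reverse strand) was 1.502-fold higher with OSSL_325096 per the authors' deposited table (log2 0.59, implied SE 0.91, unadjusted p = 0.518). It was just past the 1.5-fold line and the nearest gene of the set on the other side was PRMT6 at 1.37-fold. Centring the fold changes on the median of all genes put PRMT5 at a log2 of 0.58, under the line. The neighbours of PRMT5 had log2 fold changes of -0.75 (REM2) to 0.27 (LRP10) per the authors' deposited table, with implied SEs of 0.91 to 1.78. An antisense gene, PRMT5-AS1, covers 36.99% of the exon bases of PRMT5 in GENCODE 44, and reads of the pair cannot be told apart without a stated strand setting; it was at 0.0303 RPKM per the authors' deposited table.

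CLNS1A (ENSG00000074201; hg19 chromosome 11, 77225981 to 77348850, reverse strand), the carrier of Sm proteins, had a log2 fold change of -0.27 with an implied SE of 0.90 (unadjusted p = 0.765) per the authors' deposited table. The sign was thus opposite to those of WDR77 and PRMT5. The difference from 0 was smaller than its implied SE, which may also hold differences between the lines. The levels of the 3 genes were 25.6 RPKM for WDR77, 22.3 RPKM for PRMT5 and 19.6 RPKM for CLNS1A per the authors' deposited table. By the signs of their fold changes, these are means of OSSL_325096 libraries for WDR77 and PRMT5 and of DMSO libraries for CLNS1A, so the order of the 3 levels within a treatment is not given. Of the other partners, RIOK1, a kinase that competes with CLNS1A for PRMT5, had a log2 fold change of 0.01, COPRS, which directs PRMT5 to histones, 0.31, and STRAP, which binds the SMN complex, 0.06 per the authors' deposited table. STRAP was the most abundant of these 3 at 43.3 RPKM per the authors' deposited table, and 0 of the 3 were past 1.5-fold. With 4.95% of all genes at least 1.5-fold higher and 4.95% lower, nothing is read from that count.

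**Figure D2:**
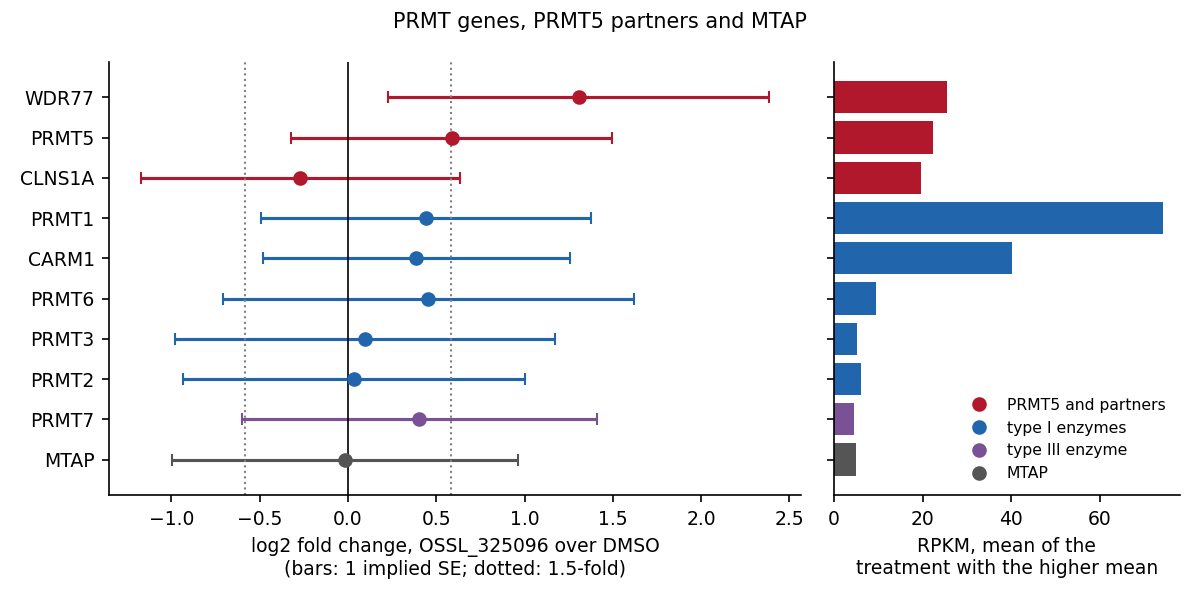
Left, log2 fold change of OSSL_325096 over DMSO with bars of 1 implied SE for the 10 genes; right, RPKM of the treatment with the higher mean (bars start at 0). The bar of WDR77, 1.31 with an SE of 1.08, stays above 0, and those of the other 9 genes cross it. The implied 95% interval of the WDR77 fold, 0.571 to 10.7, includes no change, and the set was put together because of WDR77.

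The type I enzymes held the most abundant genes of the set. Their log2 fold changes were below those of WDR77 and PRMT5, but their implied SEs are too large to order them against PRMT5. PRMT1 (ENSG00000126457; hg19 chromosome 19, 50179043 to 50192286, forward strand), which accounts for most asymmetric arginine methylation in mammalian cells, was at 74.3 RPKM and ranked 559th of 11324 genes by level. Its log2 fold change was 0.44 with an implied SE of 0.94 (unadjusted p = 0.636) per the authors' deposited table. CARM1 (ENSG00000142453), a coactivator of transcription that methylates histone H3, was at 40.1 RPKM with a log2 fold change of 0.39 and an implied SE of 0.87 per the authors' deposited table. In GENCODE 44, exons of YIPF2 on the other strand cover 27.0% of the exon bases of CARM1, and YIPF2 was at 21.4 RPKM with a log2 fold change of 0.21 per the authors' deposited table.

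The other type I genes were less abundant. PRMT6 (ENSG00000198890), a nuclear enzyme that methylates histone H3, was at 9.35 RPKM with a log2 fold change of 0.45 and an implied SE of 1.16 per the authors' deposited table, the largest SE of the 10 genes. PRMT3 (ENSG00000185238), a cytosolic enzyme that methylates a ribosomal protein, was at 5.28 RPKM with 0.10 (implied SE 1.07), and PRMT2 (ENSG00000160310), a weakly active enzyme with an SH3 domain, at 6.06 RPKM with 0.03 (implied SE 0.97) per the authors' deposited table. The type III gene PRMT7 (ENSG00000132600) had the lowest level of the set, 4.53 RPKM, with a log2 fold change of 0.40 and an implied SE of 1.00 per the authors' deposited table; PRMT1 was at 16.4 times that level. Exons of SMPD3 on the other strand, a gene at 31.6 RPKM with a log2 fold change of 0.36 per the authors' deposited table, cover 5.65% of the exon bases of PRMT7. The spread of the levels between libraries is not given, so the order of neighbouring levels, such as PRMT2, PRMT3, MTAP and PRMT7, carries no error.

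The 7 methyltransferase genes of the set had log2 fold changes above 0, from 0.03 to 0.59, with a median of 0.40. Over all 10 genes, 8 were above 0 and 2 below, with a median of 0.40, and 0.39 without WDR77; among all 11324 genes 51.0% were above 0 and the median was 0.01. At least 1.5-fold higher with OSSL_325096 were 2 of the 10 genes, WDR77 and PRMT5, and 4.95% of all genes. Without WDR77, for which the set was put together, 1 of 9 genes, PRMT5, was past that line. At least 1.5-fold lower were 0 of the 10 and 4.95% of all genes. Since the set was chosen from this contrast, nothing is read from these counts. After Benjamini-Hochberg adjustment of the authors' deposited p-values over the 11324 genes, 0 of the 10 genes and 0.00% of all genes were under 0.05. An unadjusted p under 0.05 was found for 0 of the 10 genes and for 5 of the 11324 (0.0442%). The implied SEs of the 10 genes, 0.87 to 1.16, were close to the median of 1.10 over all genes, and 9 of the 10 log2 fold changes were smaller than their implied SE.

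**Figure D3:**
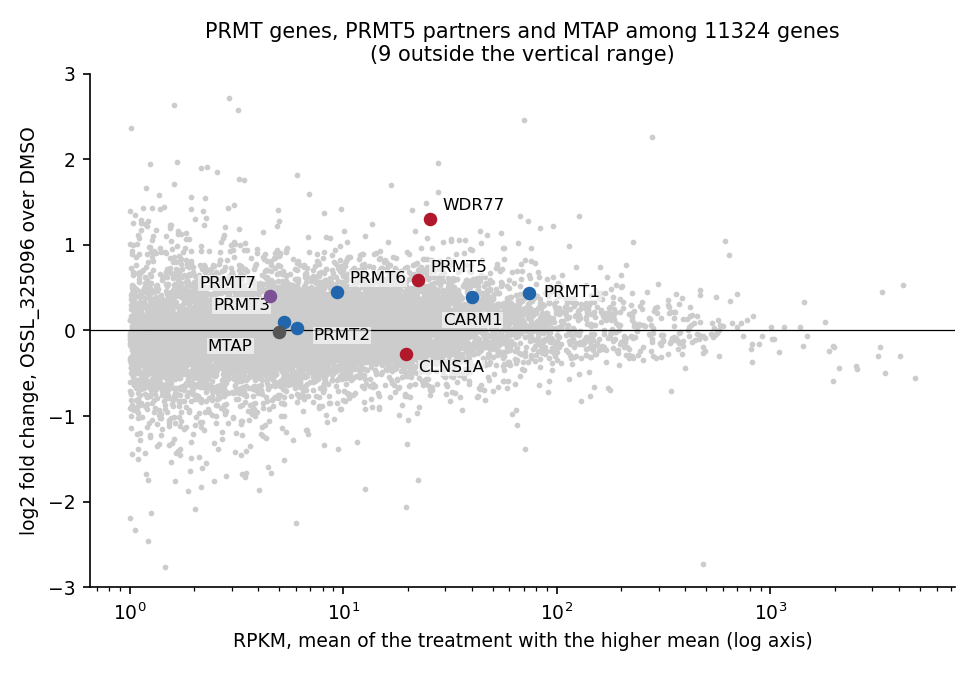
Level (horizontal log axis, RPKM of the treatment with the higher mean) against log2 fold change, OSSL_325096 over DMSO (vertical axis), of the 10 genes, coloured as PRMT5 and partners (red), type I enzymes (blue), PRMT7 (purple) and MTAP (dark grey), among those of 11324 genes that lie inside the vertical range shown (light grey). WDR77, at 25.6 RPKM and 1.31, lies at the upper edge of genes of its level; the other 9 lie between -0.27 and 0.59.

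Of 4 further genes with a known or proposed arginine methyltransferase product and at least 1 RPKM, 1 was above 0 and 3 were below. PRMT10, now called PRMT9 and the second type II enzyme, was at 1.79 RPKM with a log2 fold change of -0.31 per the authors' deposited table and an implied SE of 1.65. PRMT8, a type I enzyme of brain, was at 0.0139 RPKM per the authors' deposited table and was not among the genes compared. NDUFAF7, a mitochondrial arginine methyltransferase, had 0.12, METTL23, which is reported to methylate histone arginine, -0.08 (16.8 RPKM) and FBXO11, a ubiquitin ligase subunit once proposed to be a methyltransferase, -0.55 per the authors' deposited table. The median of the 4 genes was -0.19, and 0 of the 4 were past 1.5-fold. Of all 11324 genes, 51.0% were above 0, while 4.95% passed the 1.5-fold line upward and 4.95% downward. With only 4 genes, nothing is read from these counts.

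MTAP (ENSG00000099810; hg19 chromosome 9, 21802542 to 21931646, forward strand) belongs to the set because cells that lose it are known to depend more on PRMT5; it lies beside CDKN2A, with which many tumours lose it. It was at 4.98 RPKM with a log2 fold change of -0.02, an implied SE of 0.98 and an unadjusted p of 0.988 per the authors' deposited table. The implied 95% interval of its fold ran from 0.262 to 3.74. CDKN2A was at 92.8 RPKM and CDKN2B at 8.34 RPKM, with log2 fold changes of 0.14 and -0.29 per the authors' deposited table, and TUSC1, the next gene of at least 1 RPKM on that side, with a start 3876 kb from that of MTAP, had 0.26. Transcripts of MTAP, CDKN2A and CDKN2B were thus present in at least 1 line; which line is not given by these values. On the other side of MTAP, KLHL9, FOCAD and MLLT3 had log2 fold changes of -0.07, -0.41 and -0.61 per the authors' deposited table, with implied SEs of 0.95 to 1.18.

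Enzymes that supply the methyl donor and recycle methylthioadenosine had values around 0. Of 11 genes, 6 were above 0 and 5 below, 0 were past 1.5-fold and the median log2 fold change was 0.05. The shares over all genes were 51.0% above 0, 4.95% past the 1.5-fold line upward and 4.95% downward. Nothing is therefore read from the counts of these 11 genes. MAT2A, which makes S-adenosylmethionine, had -0.19 and AHCY, which clears its product, 0.05 per the authors' deposited table. The polyamine genes SRM, the most abundant of the list at 137 RPKM, ODC1 and AMD1 had 0.29, 0.27 and 0.42, and SMS had -0.35 per the authors' deposited table. The salvage genes that act after MTAP, MRI1, APIP, ENOPH1 and ADI1, lay between -0.24 for APIP and 0.13 for ADI1 per the authors' deposited table.

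The proteins on which the PRMT5 complex acts, and the assembly line that receives them, were covered by 2 lists. Sm and Sm-like genes were spread around 0, with 6 of 11 above 0 and a median log2 fold change of 0.01. SNRPB, the most abundant at 188 RPKM, SNRPD1 and SNRPD3, whose products carry symmetrically methylated arginines, had 0.22, 0.08 and -0.04 per the authors' deposited table. The genes past 1.5-fold were both lower with OSSL_325096: SNRPN, a relative of SNRPB expressed mainly in brain, at -0.67 (3.31 RPKM, implied SE 1.46) and LSM11, part of the U7 particle that processes histone mRNA, at -0.61 (2.83 RPKM, implied SE 1.24) per the authors' deposited table. Both had lower levels than the other genes of the list and differences smaller than their implied SEs. Among all genes, 4.95% were at least 1.5-fold lower and 4.95% higher. Genes of the SMN complex, which loads Sm proteins onto small nuclear RNA, were above 0 in 8 of 9 cases, SMN1 and SMN2 counted separately, with a median of 0.23; 51.0% of all genes were above 0. GEMIN5, which recognises the RNA, was the only one past 1.5-fold, at 0.71 with an implied SE of 1.10 per the authors' deposited table. SMN1 (17.5 RPKM) and SMN2, at 0.17 and 0.12 per the authors' deposited table, are near-identical copies, so their separate values are uncertain.

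Other substrates and readers of methylarginine were measured in 4 lists. PRMT1 substrates, RNA-binding proteins such as FBL and HNRNPA1, had log2 fold changes from -0.27 to 0.42 with a median of 0.07, and 0 of 14 were past 1.5-fold; HNRNPA1, the most abundant at 363 RPKM, had -0.08 per the authors' deposited table. CARM1 substrates had a median of 0.10 and 0 of 9 past 1.5-fold, and PABPC1, the poly(A)-binding protein gene and the most abundant at 484 RPKM, had -0.26 per the authors' deposited table. Targets of PRMT5 in transcription and replication had a median of -0.07 and 0 of 6 past 1.5-fold, with E2F1, the most abundant at 86.0 RPKM, at -0.11 per the authors' deposited table. Among 7 reader and cofactor genes of at least 1 RPKM the median was -0.13. TDRD3, a Tudor-domain reader of asymmetric methylarginine, was at least 1.5-fold lower, at -0.78 with an implied SE of 1.84 and only 1.34 RPKM, while BTG2, a PRMT1-binding protein, was at 93.3 RPKM with -0.13 per the authors' deposited table. Over all 74 genes of the 9 lists at 1 RPKM or more, 45 were above 0 and the median log2 fold change was 0.08. At least 1.5-fold lower were 3 of the 74, and 1, GEMIN5, was higher by that much. Among all 11324 genes, 51.0% were above 0, 4.95% were at least 1.5-fold lower and 4.95% at least 1.5-fold higher.

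**Figure D4:**
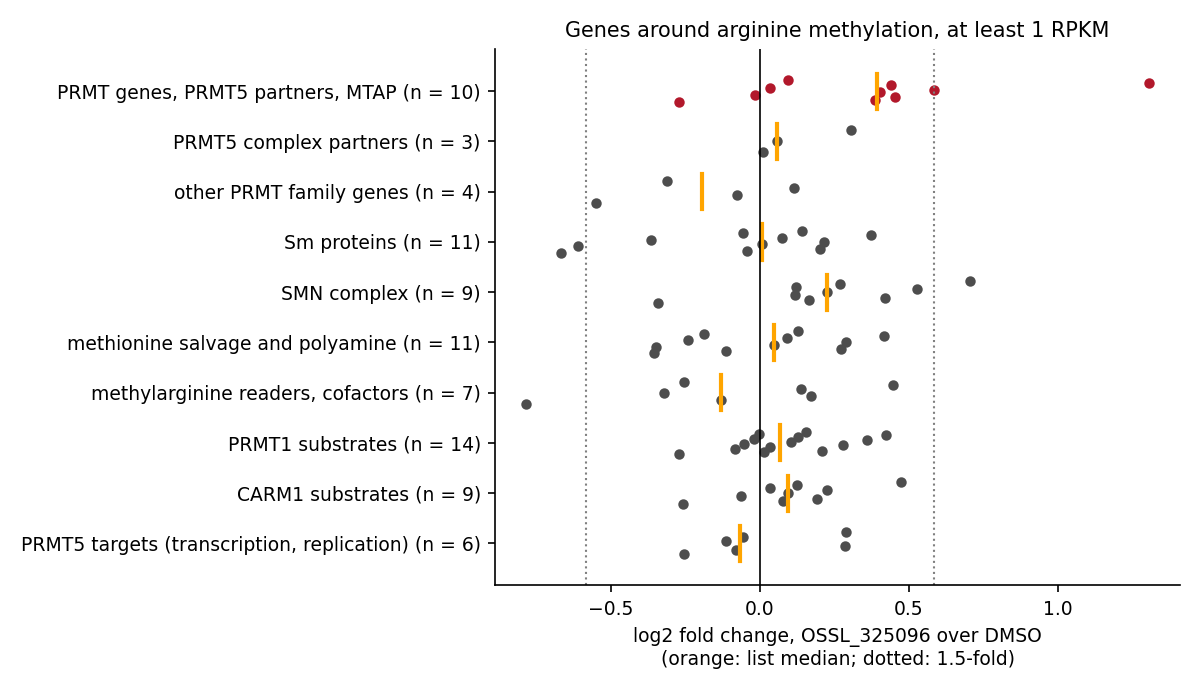
Log2 fold change, OSSL_325096 over DMSO, on the horizontal axis for each gene of at least 1 RPKM in the set of 10 (red) and in 9 lists around arginine methylation (dark grey), with list medians in orange and 1.5-fold as dotted lines. The medians of the 9 lists lie between -0.19 and 0.23, and WDR77, at 1.31, is the highest gene shown.

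The fold changes of all genes moved with the GC content of their transcripts, with a median log2 of -0.17 in the quintile of lowest GC content and 0.23 in that of highest GC content. WDR77 (52.0% GC), PRMT5 (52.3%), PRMT6 (50.4%) and PRMT2 (53.2%) were in the middle quintile, where the median was -0.0028. CARM1 (60.9%) was in the highest quintile, PRMT1 and PRMT7 in the next, and PRMT3, at 40.3%, in the lowest. Once a trend in GC content, transcript length and level was removed, WDR77 had 1.24, 49th of the 11104 genes with such values, and PRMT5 0.51. PRMT1 then had 0.27, CARM1 0.15, PRMT6 0.42, PRMT7 0.25 and PRMT3 0.27, PRMT2 had -0.02, CLNS1A -0.18 and MTAP 0.13. The median of the 10 genes was 0.26 with the trend removed, and only WDR77 was then past 1.5-fold.

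**Figure D5:**
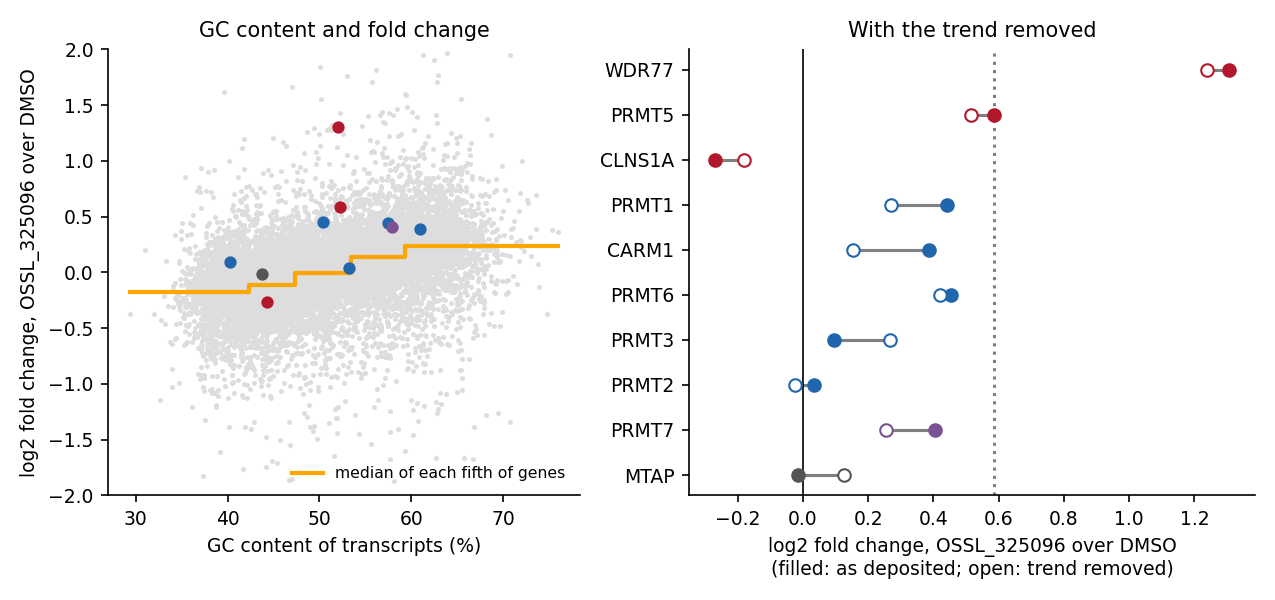
Left, GC content of transcripts (%) against log2 fold change, OSSL_325096 over DMSO, for genes with a GC value inside the vertical range shown (light grey). The 10 genes are coloured, and the median of each quintile, over all its genes, is in orange. Right, the log2 fold change of the 10 genes as deposited (filled) and with the trend removed (open). WDR77 moves from 1.31 to 1.24 and CARM1 from 0.39 to 0.15.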

How the data were processed

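RNA was measured by sequencing in 4 libraries. Per the labels' protocols, it came from Trizol extraction and a column, poly(A) capture, fragmentation and random-hexamer priming. According to the series' design text, reads were mapped to hg19, and expression values and the comparison were made by the authors in Biomedical Genomics Workbench 5. The sources used here do not give the counting rule, strand setting, annotation, scaling or model.

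The single table held 6 columns of values and 0 columns of single libraries. Per the file headers, the authors deposited an RPKM level (the mean of the treatment with the higher mean), a log2 fold change, the same fold as a signed score, and unadjusted, false discovery rate and Bonferroni p-values. The smallest false discovery rate was 0.999995. Without a known depth per library there are no counting intervals, and the labels do not state whether cultures were separate.

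A fold change was given for 23130 genes, and the 11324 genes of at least 1 RPKM were kept. Benjamini-Hochberg adjustment was recomputed over them. The planned limma fit needs single libraries, so the deposited values of the authors were used. The implied SE is the size of the log2 fold change over the normal quantile of its p-value. GC content and length were medians over GENCODE 44 transcripts on GRCh37 (98.1% of genes kept); a regression with terms up to degree 3 in GC content, length and level explained 15.8% of the variance. Exon overlap used basic transcripts. The adjustment and the regression were tested on simulated data. Promoter windows came from RefSeq (GRCh38.p14); all 10 genes matched.

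The set and the 9 lists (82 symbols, of which 78 were in the table; the other 4 are older or newer names of listed genes) were chosen with earlier results of these data known, and no list was tested. 1 listed gene is not reported here and was left out of the counts. Named genes were all 10, list members past 1.5-fold, at most 4 in each direction, the most abundant of each list, the 2 genes on each side of WDR77 by fold change, and the 3 nearest genes of at least 1 RPKM on each side of WDR77 and MTAP. Other named genes, including the neighbours of PRMT5, were chosen after their values were seen. Python 3.11.15, pandas 2.3.3, numpy 2.4.6, scipy 1.17.1 and matplotlib 3.10.9 were used.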

Additional observations from a re-analysis of the deposited data

How the results depend on the processing

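Leaving out each replicate, other pseudocounts and a fit with the cell line as replicate block were planned but not run. No paired analysis was possible because the table held no values of single libraries. Of the 10 genes, 2 were at least 1.5-fold higher as deposited, and 1 (WDR77) after centring on the median of all genes, which moved values by 0.01, and 1 (WDR77) once the GC, length and level trend was removed; the cause of the difference is that PRMT5 lay at the 1.5-fold line. The count at least 1.5-fold lower was 0 under each of these. With no filter on RPKM, 4588 of all genes were at least 1.5-fold higher and 4154 lower, and 3340 and 2798 at least 2-fold, against 561, 560, 112 and 123 at 1 RPKM. At 5 RPKM these counts were 303, 181, 40 and 24, and 8 of the 10 genes were left, with a median log2 fold change of 0.41. Removing the trend changed the sign of 2 of the 10 fold changes, PRMT2 (to -0.02) and MTAP (to 0.13), both smaller than their implied SEs, and moved none by more than 0.23. The median of the Sm list was -0.0012 after centring, and that of the methionine salvage list was -0.05 with the trend removed. Removing the trend also gave medians of -0.22 for the PRMT5 targets (-0.07 as deposited), 0.15 for the PRMT5 partners (0.06), -0.09 for the other methyltransferase genes (-0.19), 0.12 for the PRMT1 substrates (0.07) and 0.05 for the Sm list (0.01). The number of genes under an adjusted p of 0.05 was 0 as deposited and 0 when adjusted over genes of at least 1 or 5 RPKM, with 5 of 11324 under an unadjusted 0.05. Neither depth nor the spread between libraries can be had from the table.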
